A study of Mus musculus with 1 sample.

Results

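The genes described here are those of the nuclear genome for the subunits of the oxidative phosphorylation complexes, with 8 factors that assemble complex I. They were chosen by name: genes starting with Nduf, Uqcr, Atp5 or Cox4 to Cox8, plus Sdha, Sdhb, Sdhc, Sdhd and Cyc1, with names that carry the pseudogene suffix -ps left out. This gave 94 of the 25661 genes in the count table, 40 of them named for complex I, 8 assembly factors (Ndufaf), 4 of complex II, 9 of complex III, 16 of complex IV and 17 of ATP synthase. The name rule also took in 4 genes that GENCODE types as processed pseudogenes, Ndufa11b, Ndufb4c, Ndufs6b and Cox6c2. Every one of the 94 had counts, and together they held 7266353 counts, 2.41% of the library.

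The data were 1 single-cell RNA library of sorted mouse bone marrow, made with the BD Rhapsody microwell system and TAS-Seq amplification. Per the labels, it pooled cKit+Lin- progenitors and the monocyte progenitors called GMP-MoPs, each from 1 naive and 1 LPS-injected mouse, with the cMoPs of 1 naive mouse. LPS is bacterial lipopolysaccharide. Its dose and time, and the strain, age and genotype of the mice, are not given in the sources used here. Sample origin was marked by 5 barcoded streptavidin tags, of which A963 and A965 were loaded with 15000 cells each and A961, A962 and A964 with 100 each. The labels do not say which tag is which population or mouse, so tags are named as such, and with 1 sample a tag no test between them was possible.

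After cells with 2 tags or none were left out, 10528 cells with 8822 to 140994 counts each (median 24198) were used, 4716 of A963, 5567 of A965 and 68, 104 and 73 of A961, A962 and A964. Cells were placed in gates by the summed counts of marker genes, none of which is among the 94. The 14 gates with at least 50 cells held 10009 cells, and 493 cells passed none. Genes kept aside to check the gates stood above their level over all cells in each gate except 2 of 4 in the Elane-low azurophil gate (Cd63, Nkg7) and 1 of 4 in the Elane-high one (Cd34). Fewer were highest in their own gate, sister gates of a split left aside. These were 0 of 4 in the early erythroid-like and Elane-low gates, 1 of 4 in the Elane-high gate and 1 of 3 in the stem-like and Fcnb gates. In each monocyte-like gate 2 of 4 were highest, and in the remaining gates all were. Kit, the receptor in the labelled sort, was at 126 CPM (counts scaled to a sum of 1000000) in stem-like and 56.2 in early erythroid-like cells. It was at 6.48 in secondary-granule neutrophil-like and 2.76 in Mpo-low monocyte-like cells. Globin-high (3.53), plasmacytoid dendritic-like (6.43), Fcnb (8.02) and Mpo-keeping monocyte-like cells (8.97) had little Kit as well. The mature-neutrophil surface genes Ly6g (263 CPM) and Itgam (329 CPM) were highest or near highest in the secondary-granule gate, which had little Kit. These are RNA levels and do not give the surface proteins used in the sort. How the cells of that gate relate to the cKit+Lin- label was not tested. Intervals given below are exact, at 95%, and hold counting error alone, and repeated reads of 1 molecule may be among the counts.

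In the inner mitochondrial membrane, complexes I and II pass electrons from NADH and succinate to ubiquinone, complex III hands them to cytochrome c, and complex IV reduces oxygen. The proton gradient built by complexes I, III and IV drives ATP synthase. Most subunits are encoded in the nucleus and join a small core encoded by mitochondrial DNA, and a few complex IV and ATP synthase subunits exist as copies with different tissue use. In bone marrow, erythroid cells also need active mitochondria for heme synthesis, and mature neutrophils are known for relying on glycolysis.

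After Cox6a2, which has no promoter entry in the tables used here, Cox6b2 and Atp5g1 differed most between cell types among the genes with at least 100 CPM in some gate, so the bases before their RefSeq start sites are shown first, each beside a sister copy. Atp5g1 and Atp5g3 encode the same mature ATP synthase subunit c, and Cox6b1 and Cox6b2 encode the common and the testis-type subunit VIb of complex IV. Each line gives the longest stretch free of annotated exons within the 250 bases before the start (RefSeq, GRCm38.p6, minus strand, 5′ to 3′). The stretches lie at chr11:96075671-96075881 (Atp5g1), chr2:73911327-73911576 (Atp5g3), chr7:30626152-30626364 (Cox6b1) and chr7:4753095-4753225 (Cox6b2). Capitals mark matches on either strand to CCAAT (the CCAAT box, ATTGG in reverse), AGATAA (the motif of GATA factors, TTATCT in reverse), GCGCATG (the core of the NRF1 motif, CATGCGC in reverse) or CCGGAAG (an ETS motif, CTTCCGG in reverse).
Atp5g1: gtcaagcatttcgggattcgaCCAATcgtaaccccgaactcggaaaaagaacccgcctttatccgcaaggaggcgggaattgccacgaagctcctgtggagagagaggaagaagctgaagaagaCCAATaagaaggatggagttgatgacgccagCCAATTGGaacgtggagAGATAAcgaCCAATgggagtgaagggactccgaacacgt
Atp5g3: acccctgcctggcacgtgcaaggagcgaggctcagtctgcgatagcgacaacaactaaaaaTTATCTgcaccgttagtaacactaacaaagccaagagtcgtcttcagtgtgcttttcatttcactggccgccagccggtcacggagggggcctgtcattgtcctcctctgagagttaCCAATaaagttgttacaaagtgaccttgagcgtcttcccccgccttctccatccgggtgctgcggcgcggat
Cox6b1: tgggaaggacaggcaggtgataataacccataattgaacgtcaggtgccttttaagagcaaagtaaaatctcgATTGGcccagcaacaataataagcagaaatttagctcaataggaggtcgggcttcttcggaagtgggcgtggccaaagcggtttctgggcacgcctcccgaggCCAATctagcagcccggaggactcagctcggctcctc
Cox6b2: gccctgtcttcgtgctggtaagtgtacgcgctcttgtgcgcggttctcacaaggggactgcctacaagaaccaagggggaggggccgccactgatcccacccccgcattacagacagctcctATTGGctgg
The Atp5g1 stretch of 211 bases held 5 CCAAT matches, 2 of them overlapping each other, and 1 GATA match. The Atp5g3 stretch held 1 of each, Cox6b1 held 2 CCAAT matches and Cox6b2 held 1.

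Over the full 250 bases, 74 of the 94 genes had a RefSeq entry. The NRF1 letters were found in 11 of them (14.86%) against 3.315% of 27025 genes, and the ETS letters in 13 (17.57%) against 7.053%. CCAAT was found in 33 (44.59%) against 34.46%, and AGATAA in 6 (8.108%) against 10.25%. NRF1 is a known regulator of respiratory chain genes, and GATA factors direct erythroid genes. A match describes the letters only and no binding was measured.

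The 94 genes took the largest share of counts in erythroid-like cells and the smallest in neutrophil-like cells. Their summed share was 3.25% (3.24 to 3.26) in 280 early erythroid-like cells and 3.19% (3.19 to 3.20) in 538 globin-high erythroid-like cells. It was 1.60% (1.59 to 1.60) in 3254 secondary-granule neutrophil-like cells, the largest gate, which carries Camp, Ltf, Ngp and Lcn2. Early erythroid-like cells thus stood 2.04-fold (2.03 to 2.05) above secondary-granule cells. The ratio was 2.17 in A963 cells alone and 1.93 in A965 cells alone.

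Between these ends came the myeloid progenitor gates. Azurophil-high cells, which carry Mpo, Prtn3 and Ctsg, were at 2.93% where Elane was low (515 cells) and 2.74% where it was high (1586 cells). Monocyte-like cells were at 2.70% where Mpo was kept (338 cells) and 2.58% where it was low (1706 cells), megakaryocyte-like cells at 2.68% (63 cells) and plasmacytoid dendritic-like cells at 2.49% (375 cells). Lymphoid-like cells (514) were at 2.22%, stem-like cells (256) at 2.14%, class II dendritic-like cells (315) at 2.11%, basophil/mast-like cells (100) at 1.97% and Fcnb neutrophil precursor-like cells (169) at 1.90%. Neighbours in this order often overlapped between tags. Early erythroid-like cells were at 3.29% in A963 and 3.15% in A965, on either side of the globin-high values of 3.20% and 3.21%. Stem-like cells were at 2.05% and 2.22%, a range that took in the lymphoid-like 2.199% and class II dendritic-like 2.08% and 2.19%. Secondary-granule cells, at 1.52% and 1.63%, were below every other gate of at least 50 cells in both tags.

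**Figure D1:**
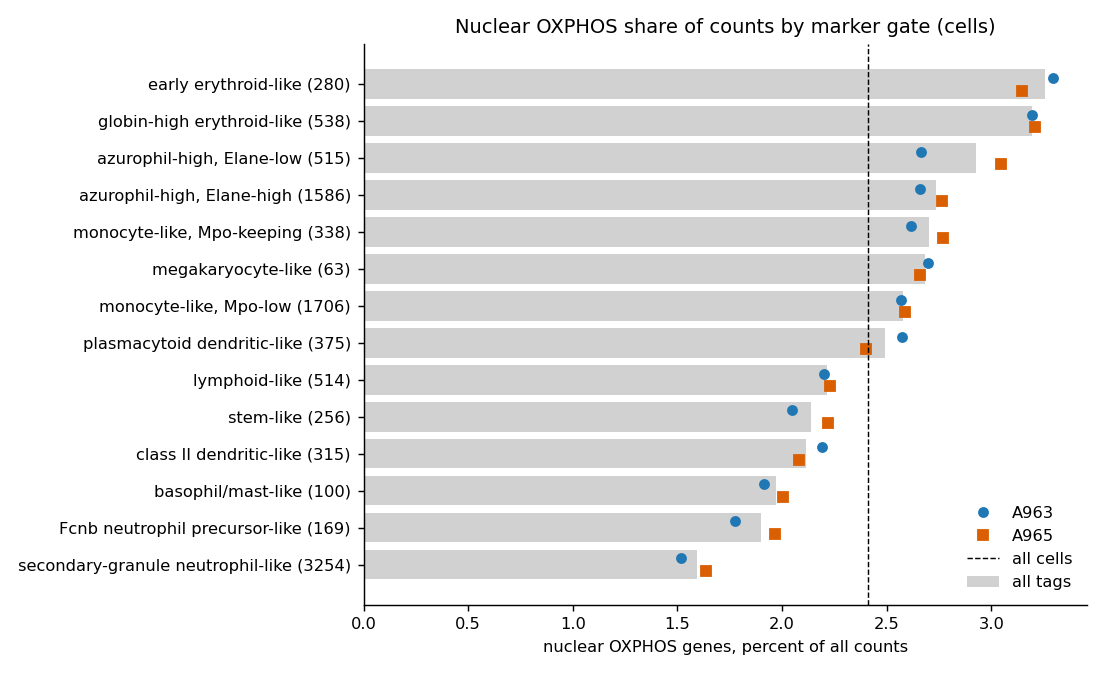
Share of counts in the 94 nuclear oxidative phosphorylation genes (horizontal axis, percent) for each marker gate, with bars for cells of all tags, points for A963 and A965 and a dashed line at the 2.41% of all cells. Erythroid-like points lie between 3.15% and 3.29%, and the secondary-granule gate at 1.52% and 1.63%.

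A few abundant genes took much of the counts in neutrophil-like cells: the 100 genes with the most counts held 55.4% of secondary-granule counts against 35.6% of early erythroid-like counts. With those 100 genes left out of the denominator, the shares were 3.58% and 5.05%, a ratio of 1.41. On that scale the lowest gates were basophil/mast-like (2.97%), class II dendritic-like (3.22%) and stem-like (3.43%), and secondary-granule cells were next to lymphoid-like (3.56%) and Fcnb cells (3.57%). The place of the erythroid-like gates at the top (5.05% and 4.87%) was the same on both scales, while the place of secondary-granule cells at the bottom was not.

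Cells within a gate varied as well. After each cell was thinned to 8800 counts, early erythroid-like cells held a median of 281 counts of the 94 genes (quartiles 221 and 314) and globin-high cells 280 (251 and 301.75). Secondary-granule cells held 133 (118 and 150), so their quartile range lay below those of both erythroid-like gates. The variance was 13.8 times the mean in early erythroid-like and 5.07 times in secondary-granule cells. At a fixed relative spread, this measure grows with the level. The standard deviation was 22.8% of the mean in early erythroid-like and 19.4% in secondary-granule cells, a smaller gap, and 23.4% in basophil/mast-like cells.

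Member by member, 88 of the 94 genes reached 10 CPM in either early erythroid-like or secondary-granule cells and could be compared. With 10 CPM added to both levels, 70 of the 88 (79.5%) were at least 1.5-fold higher in early erythroid-like cells, against 49.4% of all genes compared. One, Ndufv3, was at least 1.5-fold lower, against 16.9% of all genes. The median log2 ratio was 1.14 over the 88 and 0.57 over all genes. With the 100 most counted genes out of the denominator, 49 members passed, against 34.9% of all genes. Within A963 alone 72 of 88 were higher (background 47.9%), and within A965 alone 65 of 87 (background 50.9%).

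Complex I, which takes electrons from NADH, had 38 genes compared, of which 27 were higher in early erythroid-like cells, and its summed ratio was 1.86. This count and those of the other complexes below stand beside the 49.4% of all genes that were higher in this comparison. Ndufab1, the mitochondrial acyl carrier protein, was at 424 CPM in early erythroid-like and 82.1 in secondary-granule cells, a ratio of 5.17. The accessory subunit genes Ndufa12 (333 and 64.1 CPM) and Ndufa10 (178 and 43.9 CPM) and the core subunit gene Ndufs3 had ratios of 5.199, 4.05 and 4.71. These stood far above the complex's sum, while several other accessory genes were level or lower. Ndufb11 had a ratio of 0.839 and Ndufb7 of 0.727. Ndufv3 (chr17:31520115-31531331) was at 125 CPM in early erythroid-like and 238 in secondary-granule cells, a ratio of 0.524 (0.497 to 0.553). Ndufv3, an accessory subunit of the NADH-binding part, was highest in Fcnb cells at 264 CPM. Ndufb11 (chrX:20615326-20617619) overlaps Rbm10 on the other strand, and whether the counting used strand is not given in the sources used here.

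Of the 8 assembly factors, which help build complex I without staying in it, 7 were compared and 6 were higher in early erythroid-like cells, with a summed ratio of 3.43. Ndufaf4 was at 87.4 CPM in early erythroid-like, 47.5 in globin-high and 2.82 in secondary-granule cells, a ratio of 31.1 (26.8 to 36.1) between the first and last. Ndufaf2 was at 55.1 and 6.73 CPM, a ratio of 8.20. None of the 8 reached 100 CPM in any gate, so they carried 0.9503% of the counts of the 94 genes.

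All 4 complex II genes, whose proteins oxidise succinate, were higher in early erythroid-like cells, with a summed ratio of 3.07. The membrane anchor genes Sdhd and Sdhc had ratios of 3.44 and 2.99, the iron-sulfur subunit Sdhb 2.98 and the flavoprotein Sdha 2.81. The 4 thus lay close together, though their highest gates differed: Sdhb was at 302 CPM in plasmacytoid dendritic-like and 293 in early erythroid-like cells, and Sdha was at 164 CPM in both early erythroid-like and Mpo-keeping monocyte-like cells.

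In complex III, 8 of 9 genes were higher, with a summed ratio of 2.48. Uqcr11, a small subunit, was at 370 and 78.0 CPM (4.74-fold), and Cyc1, which encodes cytochrome c1, at 305 and 71.5 CPM (4.27-fold). The hinge protein gene Uqcrh was at 832 and 335 CPM (2.48-fold) and Uqcrq at 497 and 210 CPM (2.36-fold). Each of these 4 was lowest in secondary-granule cells.

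In complex IV, 10 of the 13 genes compared were higher, with a summed ratio of 1.83, next to the 1.86 of complex I. Its pair of most counted genes lay near that sum: Cox4i1 was at 1459 and 843 CPM (1.73-fold) and Cox8a at 962.9 and 542 CPM (1.78-fold). Cox4i1 was highest in Mpo-low monocyte-like cells, at 1653 CPM. Ndufa4, named for complex I but known as a complex IV subunit, was at 749 and 396 CPM (1.89-fold) and highest in Elane-low azurophil cells at 881 CPM.

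In ATP synthase, 15 of 17 genes were higher, with a summed ratio of 2.25. Atp5b, the catalytic beta subunit, was at 891 and 276 CPM (3.23-fold). Atp5h, subunit d of the stalk, was at 750 and 585 CPM (1.28-fold) and highest in globin-high cells at 924 CPM. The widest gap was that of Atp5g1, described with its copies below.

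Of the 77 genes with at least 100 CPM in some gate, 26 were highest in early erythroid-like cells, 24 in globin-high cells, 6 in megakaryocyte-like and 5 in Elane-low azurophil cells, and 57 were lowest in secondary-granule cells. The median log2 ratio of highest to lowest gate was 1.24. The most even genes were Ndufa13 (343 CPM in Mpo-low monocyte-like, 252 in lymphoid-like cells; log2 ratio 0.43), Atp5j (0.61), Ndufs5 (0.63), Ndufa11 (0.64) and Cox6c (0.66). Ndufa13 is a complex I accessory subunit also known as Grim-19, and Atp5j encodes coupling factor 6. Ndufa11 and Cox6c each have a pseudogene copy in the table (Ndufa11b, Cox6c2) that may share reads, so their levels are uncertain, as are those of Ndufs6 and Ndufb4. At the other end, 17 genes stayed under 100 CPM in every gate, 6 of them under 10 CPM: Ndufa11b, Ndufs6b, Cox6c2, Cox7a1, Cox4i2 and Ndufaf5.

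Further pairs of gates were also compared. From azurophil-high, Elane-high to secondary-granule cells the summed level differed 1.71-fold, with 65 of 87 genes higher in the former (background 40.6%) and 0 lower (background 5.94%). This pair skips the Fcnb cells, which had the next highest Camp (31788 CPM) after secondary-granule cells. Their share of 1.90% lay between those of the pair, and they were not compared gene by gene. Between globin-high and early erythroid-like cells the ratio was 0.981, and the assembly factors Ndufaf4 and Ndufaf6 (12.7 against 26.9 CPM) were the 2 genes at least 1.5-fold lower in globin-high cells (background 12.4%). Elane-low azurophil cells stood 1.37-fold (1.36 to 1.38) above stem-like cells, with 22 of 88 genes higher (background 7%) and 2 lower, Cox6a2 and Cox6b2 (background 12.8%). Those 22 held 6 genes each of complex I, complex IV and ATP synthase and 4 of complex III, with Uqcrq 2.23-fold and Atp5g1 2.11-fold higher. Elane-high and Elane-low azurophil cells differed by a ratio of 0.934 and no gene passed 1.5-fold (background 8.94% either way). Mpo-keeping over Mpo-low monocyte-like cells had a ratio of 1.05, with Ndufaf4 higher (36.6 against 17.4 CPM, 1 of 88, background 3.52%) and Cox6a2 lower (1 of 88, background 4.44%).

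Cox6a2, the heart and muscle type of complex IV subunit VIa, marked plasmacytoid dendritic-like cells. It was at 1518 CPM there, 624.5 in lymphoid-like, 70.9 in class II dendritic-like, 37.9 in stem-like, 24.6 in megakaryocyte-like and 24.2 in Mpo-low monocyte-like cells. The other 8 gates lay between 2.57 CPM (basophil/mast-like) and 11.5 CPM (early erythroid-like). Both tags showed it: plasmacytoid dendritic-like cells were at 1598.5 CPM in A963 and 1433 in A965, and lymphoid-like cells at 600 and 643. Cox6a1, the common copy, was at 660 CPM in plasmacytoid dendritic-like cells and highest in globin-high cells, at 1172 CPM. Cox6a2 made up 69.7% (68.9 to 70.5) of the counts of the pair in plasmacytoid dendritic-like and 56.0% (55.1 to 57.0) in lymphoid-like cells, against 1.10% in early erythroid-like cells.

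The Cox6a2 counts were spread over most cells of these gates. At 8800 counts per cell, 89.6% of plasmacytoid dendritic-like cells and 73.7% of lymphoid-like cells had a count, with medians of 12 and 3 counts. In early erythroid-like cells the share was 2.50%, and unthinned the 3 shares were 90.9%, 80.5% and 8.57%. Of the lymphoid-like cells, 61 also passed the plasmacytoid cut and had 1709 CPM of Cox6a2 with Siglech at 590 CPM. The other 453 had 523 CPM with Siglech, a plasmacytoid dendritic cell receptor, at 34.7 CPM and the lymphoid gene Dntt at 1683 CPM, and 70.6% of them had a count after thinning. Against class II dendritic-like cells, plasmacytoid dendritic-like cells had 2 of 88 genes at least 1.5-fold higher (background 15.2%), Cox6a2 at 21.4-fold (19.3 to 23.8) and Ndufab1 at 1.57-fold. Against lymphoid-like cells they had 2 higher (background 12.8%), Cox6a2 at 2.43-fold and Ndufaf3 at 1.65-fold, and 1 lower, Cox6b2 (background 7.83%). Cox6a2 lies at chr7:128205435-128206387 on the minus strand and overlaps Itgad on the plus strand, which was at 19.8 CPM in plasmacytoid dendritic-like and 4.40 CPM in lymphoid-like cells.

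Cox6b2, the testis type of subunit VIb (chr7:4751792-4753094, minus strand), was highest in erythroid-like cells. It was at 372 CPM in early erythroid-like and 309 in globin-high cells, then 129 in basophil/mast-like, 98.4 in stem-like and 75.7 in megakaryocyte-like cells. The other gates lay between 32.7 CPM (plasmacytoid dendritic-like) and 65.1 CPM (Fcnb), so the erythroid-like gates stood clear of all others. This held in both tags, with early erythroid-like cells at 387 CPM in A963 and 333 in A965 and globin-high cells at 305 and 329. Early erythroid-like cells had 9.56 times (9.13 to 10.01) the level of secondary-granule cells. Cox6b1, the common copy whose promoter is printed above, was at 821 and 431 CPM in those gates. Cox6b2 thus made up 31.2% (30.4 to 31.9) of the counts of the pair in early erythroid-like cells and 5.90% in plasmacytoid dendritic-like cells. After thinning, 85.4% of early erythroid-like cells and 14.4% of plasmacytoid dendritic-like cells had a Cox6b2 count (94.3% and 19.2% unthinned).

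Of the other copies used in particular tissues, Cox4i2, the lung and hypoxia type of subunit IV, reached at most 5.38 CPM (Elane-low azurophil cells), and Cox7a1, the muscle type of subunit VIIa, at most 1.15 CPM. Cox7a2l, which links complexes III and IV, followed another order than the sum: it was at 486 CPM in lymphoid-like, 481 in class II dendritic-like and 466 in stem-like cells, against 267 over all cells and 148 in secondary-granule cells (chr17:83501918-83517330). The 3 gates in which Cox7a2l was highest were thus among the lower gates for the sum. The related Cox7a2 was lowest in stem-like cells, at 304 CPM, and at 584 CPM in early erythroid-like cells.

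The 3 genes for ATP synthase subunit c, which encode 1 mature protein with different import sequences, were used in different proportions. Atp5g1 (chr11:96068852-96075670) was at 1345 CPM in early erythroid-like, 1066 in globin-high, 875 in Elane-low azurophil and 181 in secondary-granule cells, a ratio of 7.43 (7.26 to 7.60) between the first and last. Atp5g3 (chr2:73908447-73911326) was at 613 and 185 CPM in early erythroid-like and secondary-granule cells, and Atp5g2 (chr15:102662864-102672352) at 544 and 193 CPM. Atp5g1 made up 53.8% (53.2 to 54.3) of the counts of the 3 genes in early erythroid-like cells, 53.0% in globin-high cells, 32.4% (32.0 to 32.8) in secondary-granule cells and 30.2% in class II dendritic-like cells. Atp5g2 took the largest part of the 3 in class II dendritic-like (45.5%), lymphoid-like (44.1%), stem-like (44.0%) and plasmacytoid dendritic-like cells (42.4%), and 18.6% in globin-high cells. By a smaller margin it was also the largest in Mpo-low monocyte-like cells (506 CPM, against 468 for Atp5g1). The same held in secondary-granule cells (193 CPM, against 185 for Atp5g3). Shares are of 3′ counts, which do not compare genes by transcript length.

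**Figure D2:**
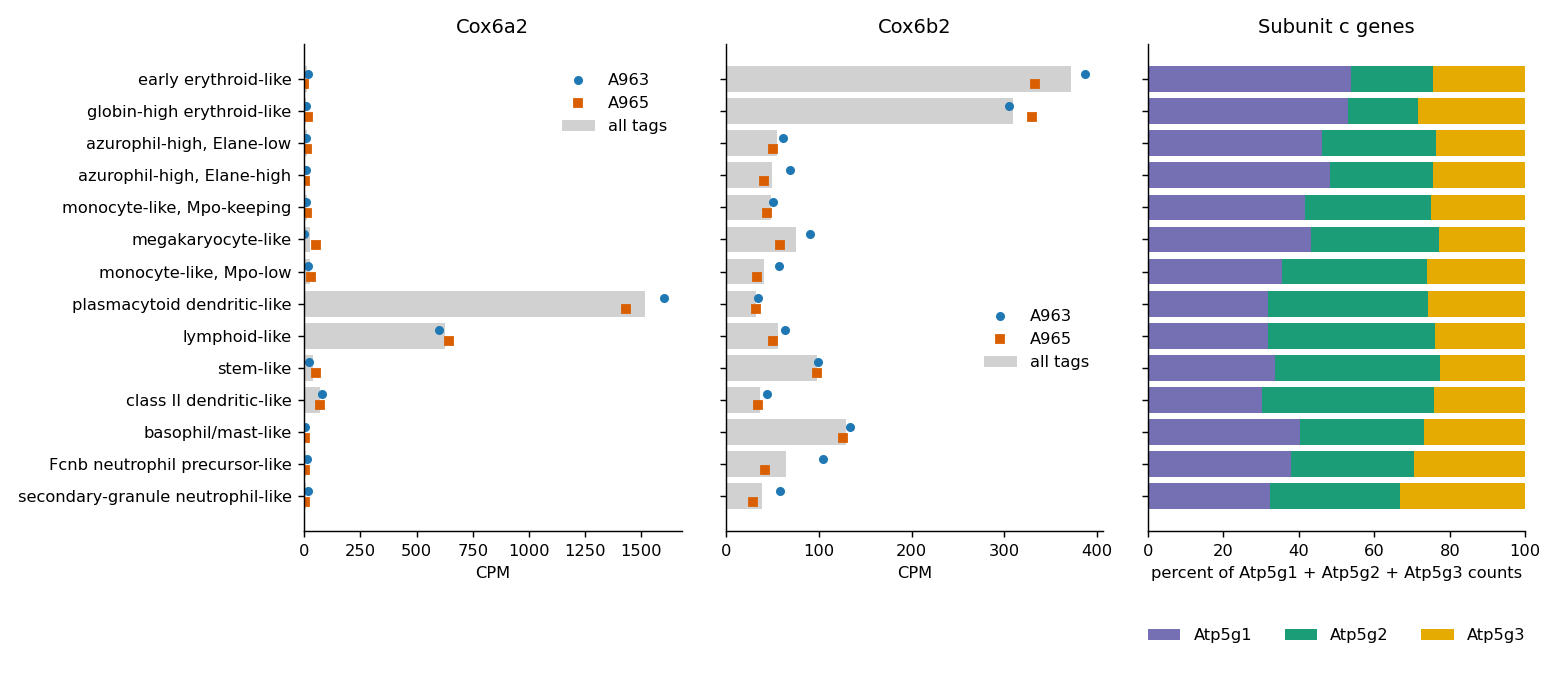
Cox6a2 and Cox6b2 levels (CPM) by gate, with bars for cells of all tags and points for A963 and A965, and stacked bars of the share of Atp5g1, Atp5g2 and Atp5g3 in the counts of the 3 subunit c genes. Cox6a2 peaks at 1518 CPM in plasmacytoid dendritic-like cells, Cox6b2 at 372 CPM in early erythroid-like cells, and Atp5g1 ranges from 30.2% to 53.8% of subunit c counts.

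The subunits encoded by mitochondrial DNA followed the nuclear genes only in part. These 13 genes took 3.26% of counts in stem-like and 3.24% in megakaryocyte-like cells, 3.12% in early erythroid-like, 2.55% in globin-high and 1.56% in secondary-granule cells. The nuclear sum divided by the mitochondrial sum was 1.254 in globin-high, 1.04 in early erythroid-like and 1.02 in secondary-granule cells, against 0.655 in stem-like and 0.637 in basophil/mast-like cells. Globin-high cells thus stood 1.91-fold above stem-like cells in this ratio. From early erythroid-like to secondary-granule cells both sums differed alike, by 2.04 and 2.00. From stem-like to Elane-low azurophil cells they did not: the nuclear ratio was 1.37 and the mitochondrial one 0.90. Over the 14 gates, which share 1 library, the 2 sums had a Pearson r of 0.48 and a Spearman rho of 0.32.

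**Figure D3:**
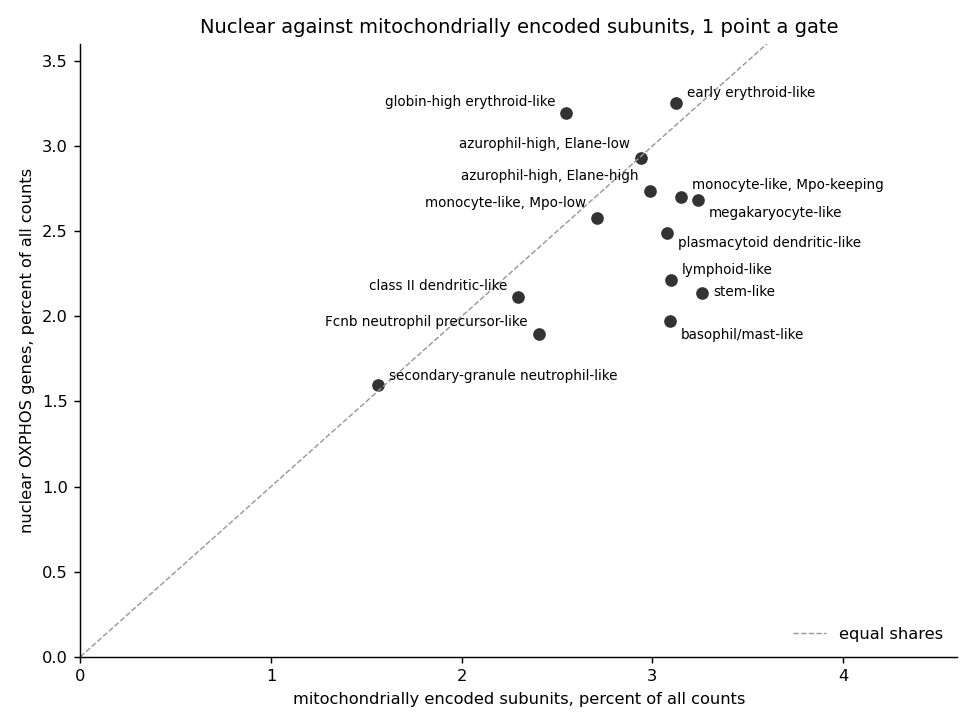
Share of counts in the 94 nuclear genes against the share in the 13 mitochondrially encoded subunits, 1 point a gate. Stem-like cells have 3.26% mitochondrial and 2.14% nuclear counts, globin-high cells 2.55% and 3.19%, and secondary-granule cells are low on both axes at 1.56% and 1.60%.

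Other mitochondrial gene lists stood nearer to the 94 genes. Over the 14 gates the summed mitochondrial ribosome genes had r = 0.96 and rho = 0.97 with the nuclear subunit sum, tricarboxylic acid cycle genes 0.92 and 0.90, cytosolic ribosomal proteins 0.61 and 0.48, and glycolysis genes -0.30 and -0.27. In early erythroid-like over secondary-granule cells, 71 of 78 mitochondrial ribosome genes (summed ratio 3.15), 12 of 13 tricarboxylic acid cycle genes (2.67), 12 of 13 mitochondrially encoded genes and 88 of 89 cytosolic ribosomal protein genes (3.08) were at least 1.5-fold higher, beside the 49.4% of all genes given above. Of 13 glycolysis genes, 2 were higher and 9 lower (summed ratio 0.46), with the pyruvate kinase gene Pkm at 27.6 and 660 CPM. Atpif1, the inhibitor of ATP synthase, was at 1425 CPM in early erythroid-like, 1576 in globin-high and 283 in secondary-granule cells. Of 34 assembly genes outside the name rule, 30 were compared and 24 were higher.

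Among 12 regulators of mitochondrial genes, 10 were compared and 5 were higher in early erythroid-like cells, beside 49.4% of all genes, so this count is at the background. Tfam, which packages and transcribes mitochondrial DNA, was at 87.2 and 19.0 CPM, and Nrf1, the factor whose letters were searched above, at 27.3 and 16.9 CPM. Ppargc1a, a coactivator of mitochondrial biogenesis, was at most 1.10 CPM in any gate.

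Between the 2 large tags, the 94 genes took 2.46% of counts in A963 and 2.37% in A965, a ratio of A965 to A963 of 0.963 (0.962 to 0.965). This small difference turned with the makeup of the tags. Early erythroid-like and globin-high cells were 4.13% and 9.22% of A963 cells but 1.51% and 1.69% of A965 cells, and with the gate shares of A963 given to both tags the ratio was 1.03, with those of A965 1.04. The tags also differed in depth, with medians of 20430.5 counts per cell in A963 and 27205 in A965. Xist, expressed from the inactive X chromosome of females, was at 611 CPM in A963 and 11.8 in A965, and Y-linked genes at 6.46 and 79.5 CPM. The part of sex and animal in any difference between these tags cannot be told apart from that of treatment or sort.

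Over all cells, 1 of 88 genes compared was at least 1.5-fold apart (background 4.47%). This was Cox6b2, at 53.4 CPM in A961, 53.2 in A962, 126 in A963, 50.4 in A964 and 52.0 in A965, 2.42-fold (2.36 to 2.48) lower in A965 than in A963. A963 alone stood apart. Globin-high cells were 9.22% of A963 cells, 6.73% of A962, 1.69% of A965, 1.47% of A961 and 1.37% of A964. Early erythroid-like cells, the gate with the highest Cox6b2, were 4.13% of A963, 1.51% of A965, 1.37% of A964 and 0% of both A961 and A962. The part of cell makeup in the Cox6b2 difference was not tested. Next were Ndufab1 (ratio of A965 to A963 0.761), Atp5g1 (0.808), Ndufs7 (0.808) and Ndufb4 (0.810), and on the other side Ndufv3 (1.26), Cox7a2l (1.11), Ndufb11 (1.09), Ndufa13 (1.09) and Cox7a2 (1.08). Of these, Ndufab1 and Atp5g1 were also among the genes highest in erythroid-like over neutrophil-like cells, and Ndufv3 and Ndufb11 among the few lower there. The others on the A965 side differed. Cox7a2l (257 and 148 CPM) and Cox7a2 (584 and 465 CPM) were higher in early erythroid-like than in secondary-granule cells. Ndufa13 was near level (267 and 271 CPM). The part of cell makeup in these ratios was not tested either.

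Within gates of at least 100 cells of each tag, the summed ratio of A965 to A963 was above 1 in 7 of 9, though in lymphoid-like and Mpo-low monocyte-like cells it turned below 1 after thinning (0.993 and 0.979). It was 1.14 (1.14 to 1.15) in Elane-low azurophil cells, 1.08 in stem-like and secondary-granule cells, 1.06 in Mpo-keeping monocyte-like, 1.04 in Elane-high azurophil, 1.01 in lymphoid-like and 1.01 in Mpo-low monocyte-like cells. It was 0.948 in class II dendritic-like and 0.934 in plasmacytoid dendritic-like cells. In the Elane-low azurophil gate 81 of 88 genes were above 0 on the log2 scale, with a median of 0.17 against -0.01 over all genes, and none passed 1.5-fold (background 1.26%). Median counts per cell in that gate were 29754 in A963 and 44959.5 in A965, and with every cell thinned to 8800 counts the ratio was 1.15. The gate also held the eosinophil genes Prg2 (629 CPM) and Epx (74.4 CPM), both highest in basophil/mast-like cells (3124 and 379 CPM). Over all cells A965 had more of both, with Epx at 16.0 CPM against 0.719 in A963 and Prg2 at 134 against 25.2. The part of such cells in the ratio was not tested.

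Over the 9 gates 10 calls were made at 1.5-fold. Cox6b2 was lower in A965 in Elane-high azurophil cells (41.1 against 69.4 CPM, background 2.47%), in secondary-granule cells (29.3 against 58.7, background 2.11%) and in Mpo-low monocyte-like cells (33.2 against 57.4, background 4.08%). In all 9 gates its ratio was below 1, with a median log2 ratio of -0.27. None of the 9 is erythroid-like, and in globin-high cells, with fewer than 100 cells of A965, the A965 level was the higher (329 against 305 CPM). Cox6a2 was higher in A965 in stem-like cells (51.0 against 23.4 CPM, background 7.5%) and lower in secondary-granule cells (4.65 against 15.3). Few cells carried these counts: after thinning, 4 of 256 stem-like and 8 of 3254 secondary-granule cells of all tags had 5 or more. In class II dendritic-like cells 5 genes passed (background 7.64%): Cox7a2l was higher in A965 (549 against 330 CPM), and Ndufaf2, Ndufaf4, Ndufs4 and the pseudogene Ndufb4c were lower. No gene passed in lymphoid-like (background 2.69%), Mpo-keeping monocyte-like (1.94%) or plasmacytoid dendritic-like cells (5.8%). Genes on the higher side in A965 in 9 of 9 gates included Uqcrh and Atp5d (median log2 ratio 0.14 each), Cox4i1 (0.13) and Atp5l (0.086). In their lowest gates Uqcrh was at 0.0073 and Atp5d at 0.0052. The share of all genes on 1 side in 9 of 9 gates was not computed.

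**Figure D4:**
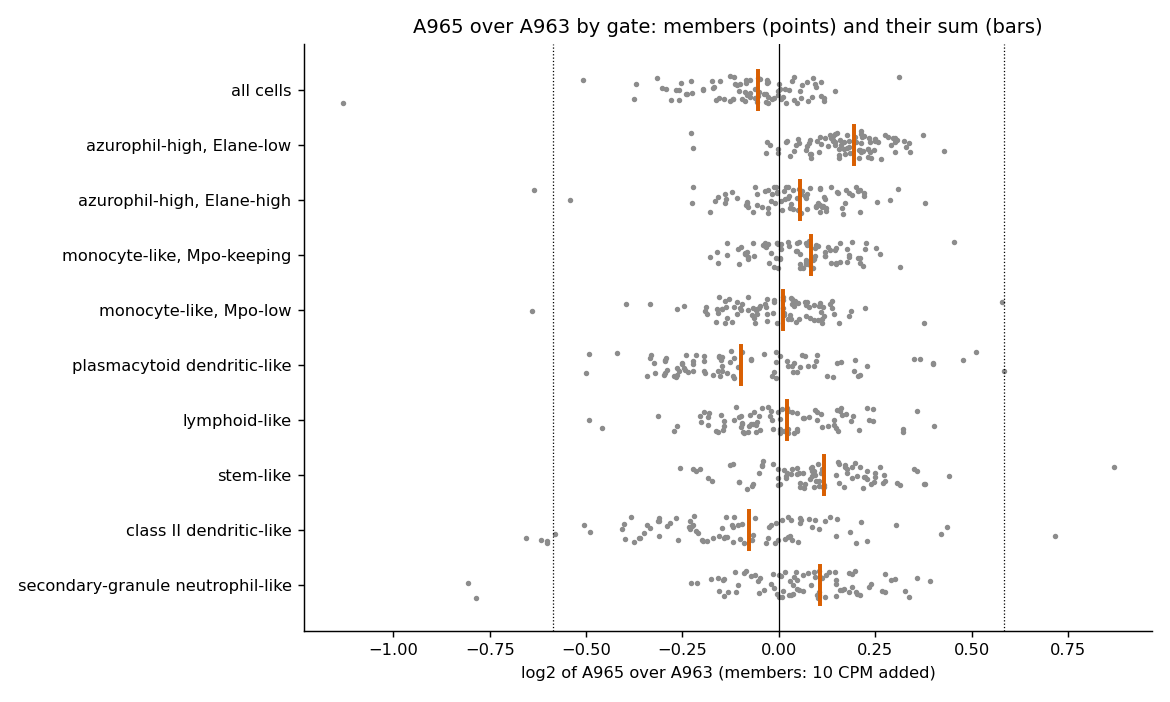
Log2 ratio of A965 to A963 for each compared gene (points) and for the summed 94 genes (bars) over all cells and in 9 gates, with dotted lines at 1.5-fold. The summed ratio lies between 0.934 and 1.14 within gates, and 10 points lie beyond the lines within gates, 5 of them Cox6b2 or Cox6a2.

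The 3 tags loaded with 100 cells were alike in the sum, at 2.57% (2.55 to 2.60) in A961, 2.58% (2.57 to 2.60) in A962 and 2.59% (2.57 to 2.61) in A964, with overlapping intervals. Their cells lay in different gates: Mpo-low monocyte-like cells were 51.5% of A961 and 50.7% of A964, and Elane-high azurophil cells were 41.3% of A962. In each pair 1 gene passed 1.5-fold: Cox6a2 in A961 over A962 (8.65 against 32.6 CPM, 1 of 88, background 8.13%) and in A962 over A964 (32.6 against 8.47 CPM, 1 of 88, background 10.1%), and Ndufaf4 in A961 over A964 (39.2 against 22.5 CPM, 1 of 87, background 10%). Plasmacytoid dendritic-like cells, the gate with the highest Cox6a2, were 1.92% of A962 cells, 1.47% of A961 and 1.37% of A964, which are 2, 1 and 1 cells. A962 held 104 cells, more than the 100 loaded. Xist was at 486.4 CPM in A961, 408.96 in A962 and 59.74 in A964, and Y-linked genes at 39.18, 20.96 and 86.002 CPM. A961 and A962 thus had more Y-linked counts than A963 (6.46 CPM) beside high Xist. Whether cells of A963 or A965 were counted under the small tags, and their part in the alike sums, was not tested.

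Cells with at least 3 counts of G2/M genes after thinning held a larger share of the 94 genes in 7 of the 9 gates, with a median ratio to the other cells of 1.11. The ratio was 1.14 in secondary-granule, 1.12 in stem-like and plasmacytoid dendritic-like, 1.11 in lymphoid-like and Mpo-low monocyte-like, 1.07 in class II dendritic-like and 1.03 in Elane-low azurophil cells. It was 0.934 (0.927 to 0.942) in Elane-high azurophil and 0.945 (0.929 to 0.962) in Mpo-keeping monocyte-like cells, so the direction was not common to all gates. Each of the 9 gates lay on the same side of 1 in A963 and in A965, but the sizes differed. The ratios were 1.19 in A963 and 1.03 in A965 for stem-like, and 1.03 and 1.15 for Mpo-low monocyte-like cells. Before thinning, the cycling cells had the higher median depth in all 9 gates. In stem-like cells it was 20510 counts in the cycling and 13672 in the other cells, and in Mpo-low monocyte-like cells 25500 and 14819. The part of depth was not tested.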

How the data were processed

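One library of mouse bone marrow cells was analysed. The authors deposited raw counts by gene and cell, as whole numbers that were not normalised. Read 1 carried a molecular identifier, per the labels, but no source used here says if it was collapsed: values of 2 were 54.7% as frequent as values of 1. The submitters' processing notes name GRCm38, Seurat 4.2.0 and R 4.2.1, with no role given, and the aligner is not given in the sources used here. Left out were 190 cells with 2 tags, 6 with none (196 columns not used) and 7 under 500 genes or over 20% mitochondrial counts.

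Each cell went to the gate whose summed marker counts per 10000 stood highest over its cut. Azurophil-high cells were split at 20 Elane and monocyte-like cells at 10 Mpo counts per 10000. Cuts were set after the score distributions were seen; 1244 cells (11.8%) lay within 1.25-fold of a cut, and 5668 passed several gates. A late neutrophil-like gate of 26 cells was not compared. Scrublet (scanpy 1.11.5) marked 223 cells (2.12%) as doublets, which were kept and taken out as an alternative. Counts were summed per gate or tag and given as CPM; intervals are Clopper-Pearson for shares and exact conditional for ratios (scipy 1.17.1). Genes with at least 10 CPM in either group were compared, and a call is 1.5-fold with 10 CPM added. With 1 sample a tag no p-value was computed. Members, lists and gates were chosen with earlier results of these data known. Named genes were the 2 most counted per complex and the 10 widest and 5 most even over gates. Also named were the 10 furthest from the summed level in a gate, tag calls with the 5 furthest each way, and tissue-restricted copies. Ndufb7, Ndufaf2, Atp5b, Ndufaf6, Uqcrh, Atp5d and Atp5l were named after their values were seen. One gene is counted in sums and counts but not drawn in the heat map or reported here by itself. GENCODE M21 placed 92 of the 94 genes, 31 of which overlap another gene. Promoters are RefSeq's.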

Additional observations from a re-analysis of the deposited data

How the results depend on the processing

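No paired analysis was possible because the labels give 1 library with 1 sample a tag and no replicate numbers; leaving out a replicate was not possible either. The ratio of early erythroid-like to secondary-granule cells (2.04) was 2.06 with gate cuts 1.5 times as high, 2.03 with cuts divided by 1.5, 2.07 without Scrublet doublets, 1.965 after thinning to 8800 counts, 2.07 without mitochondrially encoded genes in the denominator, 1.41 without the 100 most counted genes and 1.95 as a mean over cells. The globin-high over stem-like nuclear to mitochondrial ratio (1.91) was 2.00 and 1.81 with higher and lower cuts, 1.95 thinned and 1.956 as a cell mean. The median cycling ratio was 1.06 without the 100 genes.

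The A965 to A963 ratio over all cells (0.963) was 0.988 thinned, 0.984 without the 100 genes and 0.988 as a cell mean, and turned to 1.03 and 1.04 at the gate mix of A963 and A965, an alternative chosen after seeing the data. With 1 CPM added, 2 genes in place of 1 passed over all cells and 20 in place of 10 within gates; 16 passed within gates without the 100 genes. Within gates, the lymphoid-like ratio turned to 0.993 thinned (1.03 without the 100 genes, 1.003 as a cell mean), and the Mpo-low monocyte-like ratio to 0.998 with lower cuts, 0.979 thinned and 0.976 as a cell mean (1.02 without the 100 genes), so neither has a stable direction; the cause was not tested. The others kept theirs. Higher and lower cuts gave 1.10 and 1.05 in stem-like and 1.11 and 1.18 in Elane-low azurophil cells, lower cuts 1.04 in Elane-high azurophil cells, and higher cuts 0.923 in plasmacytoid dendritic-like cells. Thinning gave 1.10 in stem-like, 1.15 in Elane-low and 1.03 in Elane-high azurophil cells. Removing doublets gave 1.04 in Elane-high azurophil and 1.09 in secondary-granule cells. Without the 100 genes the ratios were 1.12 in Elane-low azurophil, 1.01 in Elane-high azurophil, 1.05 in secondary-granule, 1.05 in Mpo-keeping, 0.979 in plasmacytoid and 0.970 in class II dendritic-like cells. Cell means gave 1.10 in stem-like, 1.03 in Elane-high azurophil, 1.08 in secondary-granule, 1.07 in Mpo-keeping, 0.922 in plasmacytoid and 0.968 in class II dendritic-like cells. In the small tags A961, A962 and A964 the share was 2.45%, 2.50% and 2.43% thinned, 2.66%, 2.66% and 2.66% without mitochondrially encoded genes, 4.10%, 4.30% and 4.204% without the 100 genes, and 2.46%, 2.49% and 2.44% as cell means. The Cox6a2 ratio of plasmacytoid dendritic-like cells to the other gates except lymphoid-like (123) lay between 104 and 171 over alternatives added after seeing the data. Counting intervals are narrow at these depths and say nothing of spread between animals, since each population came from 1 mouse.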
